A study of Mus musculus with 50 samples.

Results

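Dlg1, Dlg2, Dlg3 and Dlg4 are the 4 genes of the Dlg family of postsynaptic scaffolds, and they were described here by the accessibility of their chromatin. A peak belonged to a gene where it overlapped the gene's span or lay within 2 kb of it (GRCm38), which gave 280 of the 144465 merged peaks of the series. Of these, 25 belonged to Dlg1, 233 to Dlg2, 13 to Dlg3 and 9 to Dlg4. All 280 passed the filter on low counts and were tested.

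Dlg proteins are membrane-associated guanylate kinases. They carry PDZ domains, an SH3 domain and a guanylate kinase-like domain, and they hold receptors, ion channels, adhesion proteins and signalling enzymes in place beneath the membrane of excitatory synapses. In hippocampal neurons they bind NMDA receptors through the tails of the GluN2 subunits and AMPA receptors through the stargazin family of auxiliary subunits. Dlg4 encodes PSD-95, the most abundant scaffold of the mature postsynaptic density, Dlg2 encodes PSD-93, and Dlg1 encodes SAP97, which takes part in AMPA receptor trafficking and in cell polarity. Dlg3, on the X chromosome, encodes SAP102, and its loss causes X-linked intellectual disability in humans.

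The data were ATAC-seq profiles, in which the Tn5 transposase cuts DNA that is not packed in nucleosomes. Nuclei carrying the neuronal marker NeuN were sorted by flow cytometry. The tissue was the ventral hippocampus of a single hemisphere, frozen in hexane, and the mice were male C57BL/6JRj. The mice were born to time-mated dams of 1 breeder and were reared in 5 rearing facilities (RFs). There were 2 time points (TPs): at TP2, mice aged 14 weeks were killed in the common test laboratory without having been tested, and at TP1 their cage mates aged 8 weeks were killed in the RF where they grew up. Each RF had 5 libraries at each TP, which makes 50 libraries, and all mice shared strain and sex. The question was whether accessibility at the Dlg genes depended on the RF at each TP. The libraries of each TP were sequenced as 1 batch, so TP and sequencing batch cannot be told apart. For this reason, levels were compared between RFs within a TP, and differences between RFs were compared between TPs. In bulk nuclei, a change in the mix of neurons and a change in accessibility per nucleus cannot be told apart.

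Total counts over the merged peaks ranged from 5111223 to 36401717 per library at TP2 (median 26030443) and from 33663505 to 77396321 at TP1 (median 44453692), so the sampling of reads weighed less on single peaks at TP1. The spread between libraries adds to this error, and pairs of RF1 libraries at TP1 differed by 2.86 to 23.5 times the sampling variance. Some libraries of 1 group differed by no more than the sampling of reads allows, in 13 of 50 pairs at TP2 and in 7 of 50 at TP1. At TP2, the same held for 7 of 250 pairs from different RFs, which joined RF1 replicate 3 (the library with the fewest counts) to RF2 replicates 1 to 4, and RF1 replicate 5, RF2 replicate 5 and RF5 replicate 3 to one another. It held for 0 of 250 pairs at TP1. The main results at TP2 are therefore also given without RF1 replicates 3 and 5 and RF2 replicate 5, 3 of the 8 libraries involved, which leaves none of these 7 pairs. RF5 replicate 3 and RF2 replicates 1 to 4 were kept in this setting, which was chosen after seeing the data. RF1 replicate 5 differed from the other RF1 libraries at TP2 by 2.02 to 9.76 times the sampling variance. The range was 1.69 to 2.28 for RF1 replicate 3, 2.42 to 4.16 for RF2 replicate 5 and 1.05 to 1.11 for RF5 replicate 3. Whether these libraries carry the right RF label was not tested, and the main results at TP2 keep all of them. All 8 neuronal marker genes had a promoter peak, and so had 5 of 8 oligodendrocyte, 6 of 6 astrocyte, 4 of 6 microglial and 2 of 4 vascular markers. No promoter peak was found at Mog, Mobp and Mag, at Cx3cr1 and Itgam, or at Flt1 and Pecam1.

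One annotated promoter of each gene is shown here, because the peaks over them recur in the results. The windows are 300 bases from RefSeq (GRCm38.p6), 250 bases before and 50 bases after an annotated start, on the plus strand, with each CG dinucleotide in capitals. They lie at chr16:31663685-31663984 for Dlg1, chr7:91090536-91090835 for Dlg2, chrX:100777021-100777320 for Dlg3 and chr11:70018355-70018654 for Dlg4. None of these windows is at the annotated 5′ end of its gene. The Dlg2 window belongs to the first of its listed starts, which lies far inside the gene. The Dlg1, Dlg3 and Dlg4 windows belong to a later listed start than the first.
Dlg1: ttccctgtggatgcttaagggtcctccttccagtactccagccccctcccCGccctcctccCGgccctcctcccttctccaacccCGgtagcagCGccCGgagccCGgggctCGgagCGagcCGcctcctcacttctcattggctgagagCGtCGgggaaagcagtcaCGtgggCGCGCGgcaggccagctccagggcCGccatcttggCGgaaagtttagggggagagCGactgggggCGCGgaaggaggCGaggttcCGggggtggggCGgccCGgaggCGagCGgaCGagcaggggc
Dlg2: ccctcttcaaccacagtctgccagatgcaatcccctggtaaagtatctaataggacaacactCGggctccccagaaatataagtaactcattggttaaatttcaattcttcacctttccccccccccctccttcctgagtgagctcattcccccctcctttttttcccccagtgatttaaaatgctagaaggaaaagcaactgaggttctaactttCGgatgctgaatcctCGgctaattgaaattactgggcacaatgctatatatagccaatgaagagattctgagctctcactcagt
Dlg3: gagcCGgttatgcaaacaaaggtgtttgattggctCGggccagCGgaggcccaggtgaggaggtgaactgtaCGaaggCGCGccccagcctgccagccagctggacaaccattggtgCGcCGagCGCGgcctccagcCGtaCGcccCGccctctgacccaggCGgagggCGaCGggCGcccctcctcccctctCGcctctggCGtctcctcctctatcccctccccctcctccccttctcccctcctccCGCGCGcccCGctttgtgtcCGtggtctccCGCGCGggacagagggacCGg
Dlg4: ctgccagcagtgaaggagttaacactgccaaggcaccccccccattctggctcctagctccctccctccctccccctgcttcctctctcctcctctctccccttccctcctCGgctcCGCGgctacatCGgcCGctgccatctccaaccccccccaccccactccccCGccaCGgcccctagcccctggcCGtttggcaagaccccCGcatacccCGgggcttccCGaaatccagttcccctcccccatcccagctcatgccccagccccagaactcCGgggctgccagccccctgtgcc
The Dlg1 window held 27 CG dinucleotides, the Dlg3 window 28, the Dlg4 window 12 and the Dlg2 window 3. The other windows listed for these genes held 10, 4 and 4 in Dlg1, 9 in Dlg3, 5 and 16 in Dlg4 and 1 and 2 in Dlg2. The printed windows of Dlg1, Dlg2 and Dlg3 thus held the most of those listed for their gene, and that of Dlg4 did not. Across the 32817 windows of the table the median was 7, and 84.5% of windows had fewer than the Dlg1 window, 85.8% fewer than the Dlg3 window, 60.4% fewer than the Dlg4 window and 23.3% fewer than the Dlg2 window. Of the 12 windows listed for the 4 genes, 4 contained a GC box (GGGCGG on either strand, found in 35.6% of all windows) and 2, both at the first starts of Dlg1, an E-box (CACGTG, 7.15%). None of the 12 held the cAMP response element TGACGTCA (1.79% of all windows). Dlg1 peak 1 covered the Dlg1 window, Dlg2 peak 27 the Dlg2 window and Dlg3 peak 3 the Dlg3 window, whereas Dlg4 peak 2 overlapped its window in part.

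The 4 genes differed most in length. Dlg2 spans 1973059 bp (chr7:90476188-92449246), Dlg1 209914 bp (chr16:31663443-31873356), Dlg3 51000 bp (chrX:100767411-100818410) and Dlg4 28333 bp (chr11:70017203-70045535). Dlg4 had 27.8 peaks per 100 kb and Dlg3 23.6, against 11.8 in Dlg2 and 11.7 in Dlg1, and peaks covered 49.9% of the Dlg4 window and 22.6% of the Dlg2 window. Peak height is given as CPM, the counts in a peak scaled by the total over all merged peaks of that library. The median peak had 9.79 CPM in Dlg4 (range 1.94 to 61.5), 5.93 CPM in Dlg1 (0.639 to 23.3), 3.58 CPM in Dlg2 (0.458 to 35.2) and 3.47 CPM in Dlg3 (1.33 to 21.4), against 3.99 CPM over all merged peaks. Many Dlg2 peaks were low and came from few groups of libraries. Of its 233 peaks, 56 (24%) are listed with 1 of the 10 groups and 61 (26.2%) with all 10, against 16.3% and 37.9% of all merged peaks, and 19.8% and 29.8% of peaks at genes of 500 kb or more. Of the peaks called library by library, 27 of 233 in Dlg2 were overlapped by at least 1 bp in all 25 libraries at TP2 and 54 at TP1. With an overlap of at least 50% of the merged peak, no peak of the 4 genes was found in all 25 libraries of either TP, and Dlg2 peak 1 was found in 15 of the 50 libraries, against all 50 with 1 bp. Some of these peaks also lie at a neighbour: Dlg2 peak 1 at Tmem126b, Dlg4 peak 1 at Acadvl and Mir324, Dlg4 peak 9 at Asgr1 and Dlg1 peak 25 at Meltf, so that their values cannot be assigned to 1 gene.

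To compare the 4 genes as wholes, the counts of all peaks of a gene were summed and tested for dependence on RF (edgeR, adjusted p below 0.01, over the sums of all genes). At TP2, the gene sums of Dlg4, Dlg2 and Dlg3 depended on RF and that of Dlg1 did not (adjusted p = 2.4e-07, 6.6e-06, 0.0054 and 0.065, in that order), in a background where 60.3% of gene sums did. At TP1, those of Dlg2, Dlg3 and Dlg1 did and that of Dlg4 did not (adjusted p = 3.3e-05, 3.8e-05, 1.5e-04 and 0.037), in a background of 79.6%. The call of Dlg3 at TP2 was lost without any one of RF2 replicates 1 and 2, RF4 replicate 4 and RF5 replicates 1 to 3 (adjusted p up to 0.027). That of Dlg1 at TP2 was gained without RF1 replicates 3 and 5 and RF2 replicate 5 (adjusted p = 1.4e-04).

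Dlg4 had the clearest order of RFs at TP2. Its summed level was 129.1, 126.7, 132.3, 140.6 and 132.9 CPM in the RF3 libraries, against 172.2, 186.1, 179.0, 178.1 and 179.5 CPM in the RF4 libraries (replicates 1 to 5 in each list). In RF1, it was 185.9, 186.9, 186.1, 174.6 and 144.8 CPM. All RF3 libraries lay below all RF4 and RF1 libraries. RF5 ranged from 137.9 to 149.7 CPM and RF2 from 137.7 to 187.7 CPM, with RF2 replicate 5 the lowest of its group, as RF1 replicate 5 was of RF1. The sum was lower in RF3 than in RF4 by a log2 fold change of -0.40 (adjusted p = 2.9e-07) and higher in RF1 than in RF3 by 0.37 (SE 0.05, adjusted p = 1.9e-06). It was also higher in RF1 than in RF5 by 0.26 (adjusted p = 2.9e-04), in RF2 than in RF3 by 0.31 (4.5e-05) and in RF4 than in RF5 by 0.29 (3.8e-05). The order was RF4, RF1, RF2, RF5 and RF3, and of neighbours in it only RF2 and RF5 differed (0.20, adjusted p = 0.0085).

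At TP1 the Dlg4 sum ran the other way. It was 144.7, 182.5, 206.3, 162.4 and 123.4 CPM in RF1, against 190.3, 191.6, 196.2, 197.5 and 193.6 CPM in RF3. The RF1 libraries spread over the range of all other groups, and the RF3 libraries were close together at its upper end. RF3 came last in the order at TP2 and first at TP1. The RF1 over RF3 difference was -0.20 (SE 0.07, adjusted p = 0.014) at TP1, which did not pass the threshold, and it ranged from -0.29 to -0.12 when 1 library was left out at a time (adjusted p up to 0.066). It passed without RF1 replicate 3, whose level was the highest (-0.29, adjusted p = 4.5e-05), without RF1 replicate 2 (0.0091) and without RF2 replicate 3 (0.0092). The dependence of the Dlg4 sum on RF at TP1 was called when RF1 replicate 3 was left out (adjusted p = 1.9e-04) and in none of the other 24 such cases (adjusted p up to 0.084). The change of the RF1 over RF3 difference between TPs, TP2 minus TP1, was 0.57 (SE 0.09, adjusted p = 7.2e-07).

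**Figure D1:**
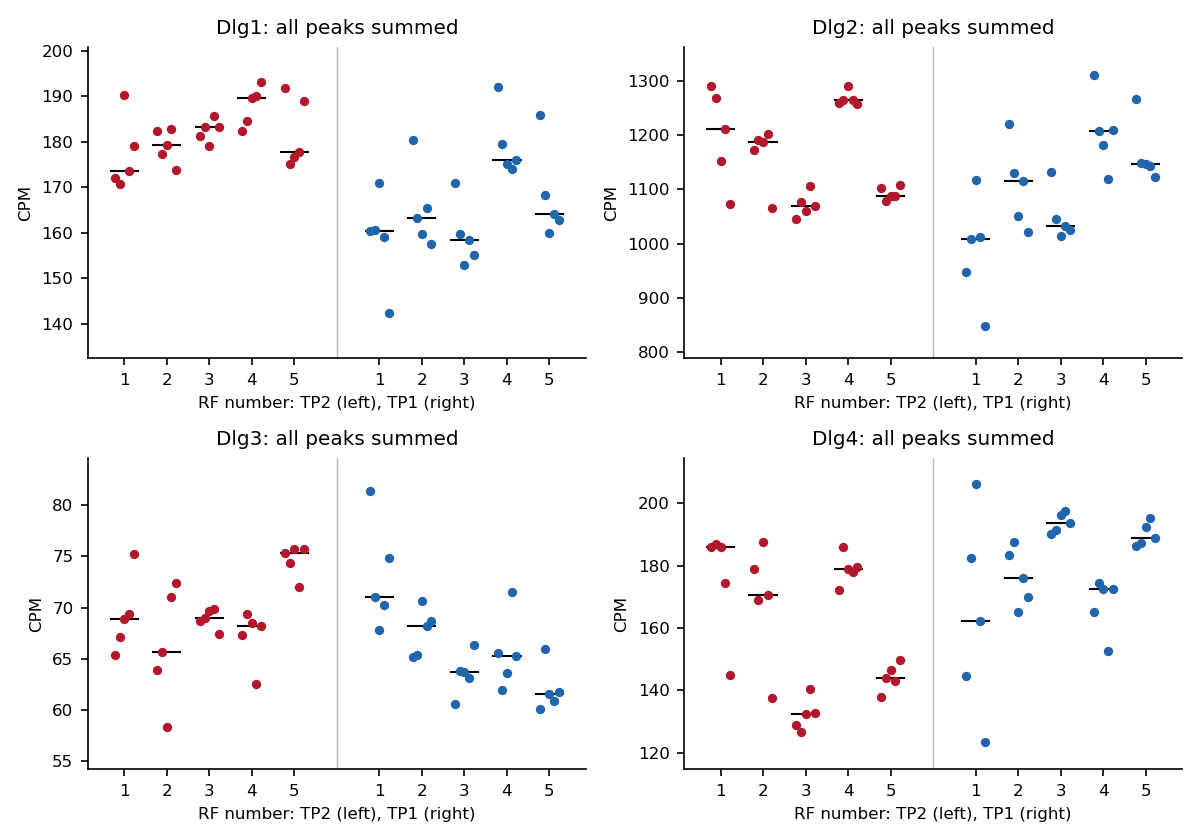
Summed CPM of all peaks of Dlg1, Dlg2, Dlg3 and Dlg4 per library (points) by RF, at TP2 (red) and TP1 (blue), with the median of the 5 libraries of each group as a bar. At TP2 the Dlg4 sums of RF3 lie between 126.7 and 140.6 CPM, below all those of RF4 (172.2 to 186.1 CPM), whereas at TP1 those of RF3 lie between 190.3 and 197.5 CPM.

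The Dlg2 sum was lowest in RF3 at TP2 and in RF1 at TP1. At TP2 it was 1046, 1076, 1059.5, 1107 and 1069 CPM in RF3, against 1259, 1265, 1292, 1265 and 1258 CPM in RF4, with no overlap (log2 fold change -0.20, adjusted p = 3.8e-06). RF5 was also low, at 1079 to 1108 CPM, and RF4 over RF5 was 0.20 (adjusted p = 1.4e-05). In RF1 it was 1291, 1268, 1152, 1212 and 1073 CPM, with replicates 3 and 5 lowest. RF1 over RF3 was 0.12 (SE 0.03, adjusted p = 0.0018), which became 0.19 without RF1 replicates 3 and 5 and RF2 replicate 5, and which lost its call without RF1 replicate 1 (adjusted p = 0.015), RF1 replicate 2 (0.010) or RF3 replicate 1 (0.012). At TP1 the Dlg2 sum was 947.1, 1009, 1117, 1012 and 848.0 CPM in RF1, against 1310.4, 1207, 1181, 1119.5 and 1209.9 CPM in RF4. Every RF1 library was below every RF4 library (-0.26, adjusted p = 9.0e-06), and RF1 was also below RF5 (-0.17, adjusted p = 9.6e-04), as was RF3 below RF4 (-0.23, adjusted p = 3.3e-04). Neighbours in the order of RFs did not differ at either TP.

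Marker sums also stood apart between RFs. At TP1 the summed CPM of the neuronal marker genes was 444.8 to 461.1 in RF1, against 362.3 to 371.0 in RF4, and that of the oligodendrocyte markers was 43.0 to 44.4 in RF1, against 36.9 to 39.7 in RF4. The microglial sums went the other way, with 39.7 to 43.2 in RF1 and 53.7 to 59.8 in RF4, as did the vascular ones, with 9.83 to 10.7 in RF1 and 11.6 to 14.5 in RF4. The astrocyte sums overlapped, at 30.3 to 39.2 in RF1 and 28.9 to 31.5 in RF4. At TP2 the neuronal sums were 376.1 to 393.8 in RF4, against 412.3 to 425.9 in RF5, and the vascular ones 11.1 to 13.3 in RF4, against 8.85 to 10.2 in RF5, without overlap, while the oligodendrocyte, astrocyte and microglial sums of these RFs overlapped. Between RF3 and RF4 at TP2 the neuronal sums overlapped, and the vascular ones were 8.34 to 10.7 in RF3, against 11.1 to 13.3 in RF4. RF1 and RF3 stood apart at TP1 in the neuronal (383.7 to 397.6 in RF3), microglial (47.7 to 52.5) and vascular sums (13.1 to 14.8). Their oligodendrocyte and astrocyte sums overlapped at TP1, and at TP2 the sums of every type overlapped between RF1 and RF3. The part of these sums in the differences at the Dlg genes was not tested.

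The sums of Dlg1 and Dlg3 had orders of RFs of their own. The Dlg1 sum at TP2 lay between 170.7 and 193.1 CPM in all 25 libraries, and RF1 over RF3 was -0.09 (SE 0.03, adjusted p = 0.031). It passed the threshold without RF1 replicate 3 (adjusted p = 0.0052) and without RF1 replicates 3 and 5 and RF2 replicate 5 (-0.12, adjusted p = 3.3e-05). At TP1 the Dlg1 sum was 170.9, 159.8, 152.9, 158.3 and 155.0 CPM in RF3, the lowest RF, against 192.0, 179.5, 175.0, 173.9 and 175.9 CPM in RF4, the highest, and every RF3 library was below every RF4 library. RF3 over RF4 was -0.20 (adjusted p = 1.1e-04), RF1 over RF4 -0.15 (4.1e-04), RF2 over RF4 -0.13 (0.0037) and RF4 over RF5 0.13 (0.0028), so that RF4 stood above each of the other 4 RFs. At TP2 the Dlg3 sum was 62.5 to 69.4 CPM in RF4, against 75.3, 74.4, 75.7, 72.0 and 75.7 CPM in RF5, the highest RF (RF4 over RF5 -0.17, adjusted p = 0.0026). At TP1 RF5 was lowest and RF1 highest, with 81.4, 71.0, 67.9, 70.3 and 74.8 CPM in RF1, against 60.1, 65.9, 61.6, 60.9 and 61.8 CPM in RF5. No RF1 library overlapped RF5 (0.30, adjusted p = 6.9e-06), and RF1 over RF3 was -0.04 (adjusted p = 0.54) at TP2, against 0.26 (SE 0.05, adjusted p = 4.6e-05) at TP1. The change of this difference, TP2 minus TP1, was -0.28 for Dlg3 (SE 0.07, adjusted p = 2.4e-04), 0.17 for Dlg2 (SE 0.06, 0.0065) and -0.13 for Dlg1 (SE 0.05, 0.013), and the last did not pass.

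Peak by peak, the genes differed in how many of their peaks depended on RF (adjusted p below 0.01 over all peaks). At TP2, 8 of 9 Dlg4 peaks, 47 of 233 Dlg2 peaks (20.2%), 2 of 25 Dlg1 peaks and 1 of 13 Dlg3 peaks did, in a background of 30.8% of the 144449 peaks tested. At TP1 the counts were 8 of 9 in Dlg4, 68 of 233 in Dlg2, 7 of 25 in Dlg1 and 4 of 13 in Dlg3, in a background of 59.1%. The share of Dlg2 was below that of all peaks at both TPs, and close at TP2 to the 19.3% of peaks at other genes of 500 kb or more, but below their 45.3% at TP1. On chromosome 7, where Dlg2 lies, 49.3% of all peaks depended on RF at TP2 and 74.9% at TP1, and on chromosome 11, where Dlg4 lies, 40.0% and 65.7% did. Both TPs called the same 8 peaks in Dlg4, 24 in Dlg2, 2 in Dlg1 and 1 in Dlg3, and 25.9% of all peaks were called at both. The RF differences themselves changed between TPs (interaction of RF and TP) at 8 of 9 Dlg4 peaks, 65 of 233 Dlg2 peaks, 4 of 25 Dlg1 peaks and 2 of 13 Dlg3 peaks, in a background of 54.4%. Without RF1 replicates 3 and 5 and RF2 replicate 5, the counts at TP2 were 8 in Dlg4, 84 in Dlg2, 4 in Dlg1 and 2 in Dlg3, while the background was 49.5%. With the libraries of a group that were within sampling noise summed, and no replicate term, they were 6 in Dlg4, 17 in Dlg2, 2 in Dlg1 and 1 in Dlg3, while the background was 14.99%. At TP1 this setting gave 5 in Dlg4, 46 in Dlg2, 4 in Dlg1 and 4 in Dlg3, with a background of 48.6%. For Dlg2, leaving out 1 library at a time gave 34 to 64 peaks at TP2 and 59 to 101 at TP1. The interaction count of Dlg2 was 28 without the libraries numbered 1, 32 without those numbered 2 and 38 without those numbered 4, with backgrounds of 40.8%, 42.2% and 42.0%. It was 71 without those numbered 3 and 70 without those numbered 5, with backgrounds of 52.7% and 53.9%.

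**Figure D2:**
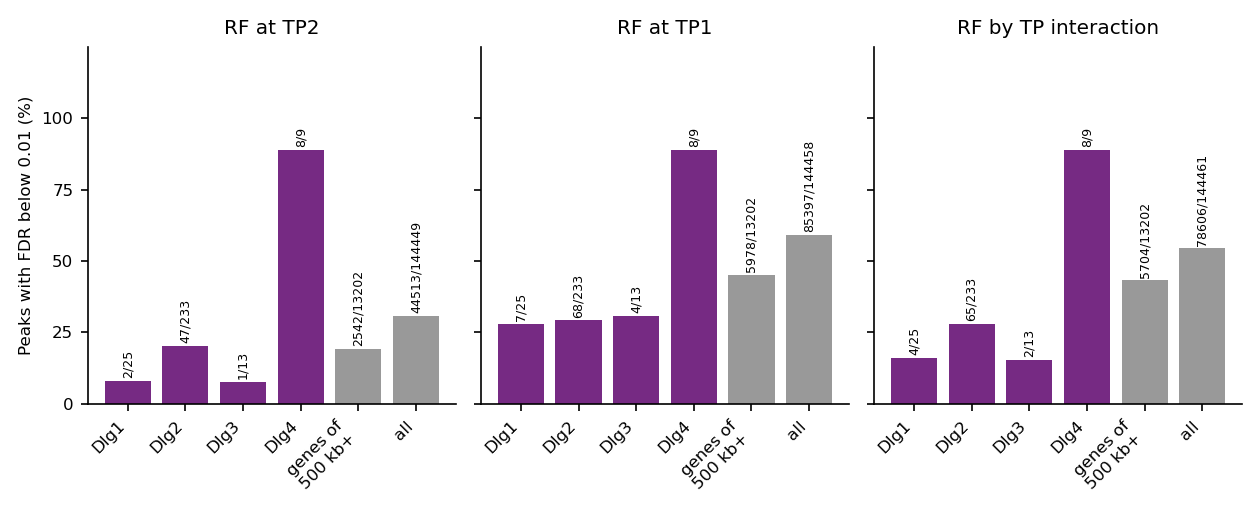
Share of peaks (%) with an adjusted p below 0.01 for dependence on RF at TP2 (left) and TP1 (middle) and for the interaction of RF and TP (right), for each Dlg gene (purple) beside the peaks at other genes of 500 kb or more and all peaks tested (grey), with the counts above the bars. Dlg4 stands at 8 of 9 peaks at both TPs, and Dlg2 at 20.2% at TP2, against 30.8% of all peaks.

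A differentially accessible region (DAR) between a pair of RFs needed a log2 fold change of at least 0.5 in either direction as well as an adjusted p below 0.01. At TP2, 24 Dlg2 peaks and 7 Dlg4 peaks were a DAR of at least 1 of the 10 pairs, and no Dlg1 or Dlg3 peak was, in a background of 21%. At TP1 there were 33 in Dlg2, 3 in Dlg4, 1 in Dlg1 and 1 in Dlg3, in a background of 38.6%. All 17 Dlg2 DARs of RF3 over RF4 at TP2 were lower in RF3 (4.48% of all peaks were), and all 9 of RF1 over RF3 were higher in RF1 (4.54%). The remaining ones were 5 higher in RF4 than in RF5 (2.83%), 2 higher in RF1 than in RF5 (3.34%) and 1 higher in RF2 than in RF3 (1.31%). At TP1, all 22 Dlg2 DARs of RF1 over RF5 were lower in RF1 (9.52%), as were all 13 of RF1 over RF4 (8.69%) and 5 of the 6 of RF1 over RF3 (9.5%). The count of Dlg2 DARs at TP2 was 15 without RF3 replicate 3, where 18.96% of all peaks were a DAR, 39 without RF1 replicate 5 (29.2%) and 58 without RF1 replicates 3 and 5 and RF2 replicate 5 (36.1%). With libraries within noise summed it was 9, in a background of 13.5%.

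The direction was shared across Dlg2. Of its 47 RF-dependent peaks at TP2, RF3 had the lowest estimate in 41, RF5 in 5 and RF2 in 1, and RF4 had the highest in 27, RF1 in 18 and RF2 in 2. Of the 68 at TP1, RF1 was lowest in 55 and RF3 in 9, and RF5 was highest in 36 and RF4 in 28. How often each RF was lowest or highest over all RF-dependent peaks, or over those of chromosome 7, was not counted. Over all 233 peaks, called or not, the median log2 fold change of RF3 over RF4 at TP2 was -0.31, and 9 peaks were above 0. For RF1 over RF3 it was 0.25 at TP2 (209 peaks above 0), against -0.08 at TP1 (72 above 0). For RF1 over RF5 it was 0.17 at TP2 (193 above 0), against -0.22 at TP1 (33 above 0). The medians over all merged peaks were close to 0, at -0.01 for RF1 over RF3 at TP2 and 0.01 at TP1. On chromosome 7 as a whole they were 0.33 and -0.40, so the shift at Dlg2 had the sign of its chromosome at both TPs and was smaller. The same held for RF3 over RF4 at TP2 (-0.38 on chromosome 7) and for RF1 over RF5 (0.28 at TP2 and -0.39 at TP1). At other genes of 500 kb or more the medians of RF1 over RF3 had the opposite signs, -0.13 at TP2 and 0.16 at TP1.

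The shift ran along the gene and beyond it. In stretches of 200 kb, which held 6 to 36 peaks each, the median of RF3 over RF4 at TP2 lay between -0.24 and -0.44 throughout, and that of RF1 over RF3 between 0.14 and 0.35. In the 1 Mb before Dlg2 the median of RF3 over RF4 was -0.29 (64 peaks), and in the 1 Mb after it -0.24 (48 peaks). At TP1 the median of RF1 over RF5 was below 0 in every stretch, from -0.44 in the second to -0.07 in the seventh, beside -0.41 before the gene and -0.25 after it. The calls were less evenly spread than the shift, and went with peak height. Among the 78 highest Dlg2 peaks (5.26 to 35.2 CPM), 33 depended on RF at TP2 and 32 at TP1. Among the 78 lowest (0.458 to 2.52 CPM), 4 did at TP2 and 14 at TP1, although the median of RF3 over RF4 at TP2 was -0.30 among the highest and -0.37 among the lowest. Of the peaks listed with all 10 groups, 28 of 61 depended on RF at TP2, and of those listed with 1 group, 2 of 56. With the mean of each 1 Mb bin taken out of the counts, 4 Dlg2 peaks depended on RF at TP2 and 52 at TP1, and backgrounds were 9.08% and 45.5%. The Dlg2 median of RF1 over RF3 was then 0.01 at both TPs. Because the gene spans nearly 2 Mb, its own peaks make up much of those means.

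**Figure D3:**
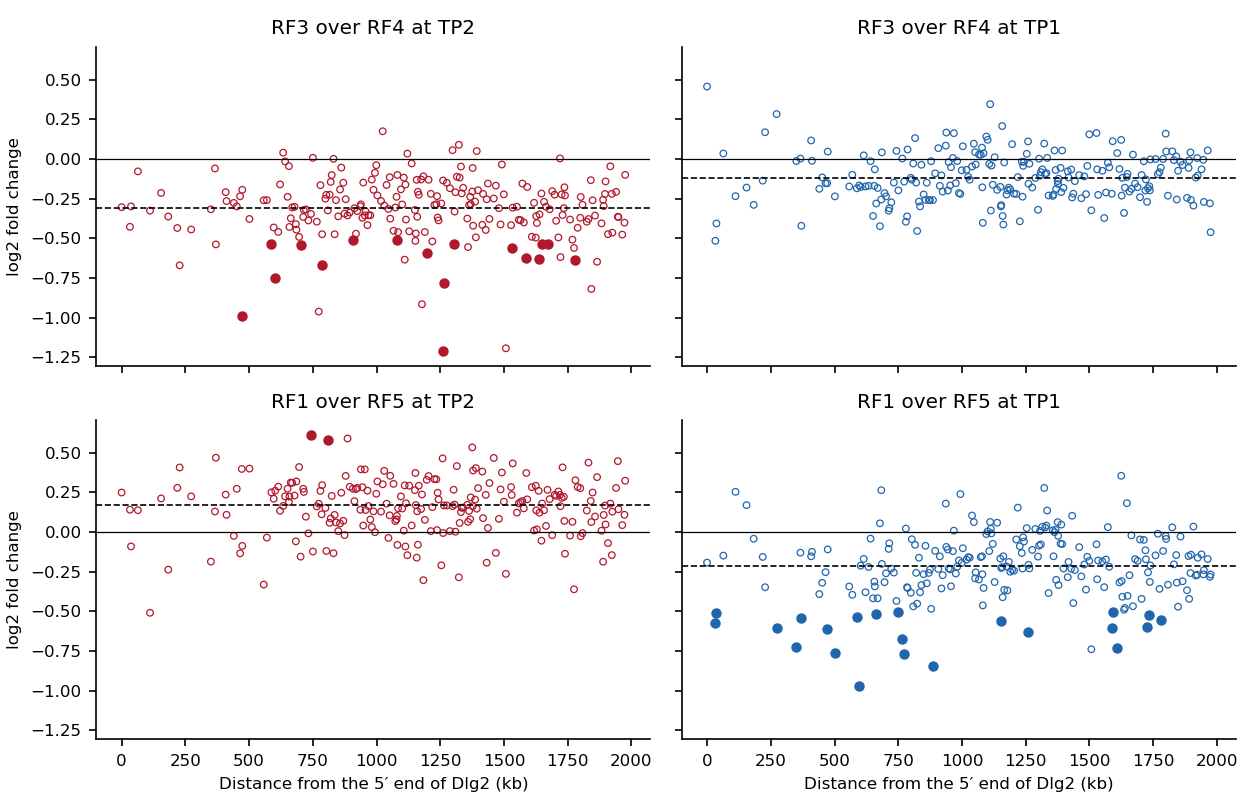
Log2 fold change of each of the 233 Dlg2 peaks by distance from the gene's 5′ end (kb), for RF3 over RF4 (upper row) and RF1 over RF5 (lower row), at TP2 (left) and TP1 (right), with filled points for DARs and a dashed line at the median. The median of RF3 over RF4 at TP2 is -0.31 with 9 of 233 peaks above 0, and that of RF1 over RF5 is 0.17 at TP2 and -0.22 at TP1.

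The highest Dlg2 peak, at 35.2 CPM, was peak 1 at the annotated 5′ end (chr7:90474489-90477175). At TP2 it had 39.0, 37.0, 36.6, 40.9 and 35.6 CPM in RF1, against 30.1, 28.8, 27.1, 29.2 and 30.2 CPM in RF3, with no overlap (RF1 over RF3 0.47, SE 0.06, adjusted p = 7.0e-09). At TP1 it had 30.9, 30.2, 30.4, 28.5 and 29.9 CPM in RF4, against 42.6, 43.0, 45.2, 45.6 and 43.4 CPM in RF5, and the groups were again apart (RF4 over RF5 -0.66, SE 0.06, adjusted p = 1.0e-11). RF4 was thus lowest here at TP1, whereas the Dlg2 sum was highest in RF4, and the RF1 over RF3 difference of this peak was 0.01 at TP1. Dlg2 peak 27, over the promoter printed above, depended on RF at TP2 (adjusted p = 1.2e-07) and not at TP1 (0.099).

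Inside the gene, Dlg2 peak 45 (chr7:91217122-91220918, 11 CPM) was higher in RF1 than in RF5 at TP2 and lower at TP1. At TP2 it had 15.3, 15.8, 11.5, 14.1 and 9.14 CPM in RF1, against 7.99, 9.12, 7.45, 9.60 and 9.90 CPM in RF5 (0.61, SE 0.10, adjusted p = 1.3e-05). RF1 replicate 5 was the one RF1 library within the range of RF5. At TP1 it had 8.99, 9.54, 10.6, 9.39 and 7.53 CPM in RF1, against 13.3, 12, 12.9, 13.6 and 11.9 CPM in RF5, with no overlap (-0.43, SE 0.08, adjusted p = 3.9e-06). Dlg2 peak 51 (chr7:91261272-91264069, 14.8 CPM) was also higher in RF1 than in RF5 at TP2 (0.30, SE 0.08, adjusted p = 0.0053) and lower at TP1 (-0.35, SE 0.07, adjusted p = 9.8e-06). Its widest difference at TP2 was RF1 over RF3, at 0.51 (SE 0.08, adjusted p = 2.1e-06). Both are far from the gene's ends.

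The widest ranges between RFs in Dlg2 belonged to low peaks. Dlg2 peak 19 (chr7:90946908-90947857) had 1.0, 1.5, 1.38, 1.25 and 1.13 CPM in RF3 at TP2, against 2.63, 2.60, 2.92, 1.75 and 2.17 CPM in RF4 (-0.99, SE 0.21, adjusted p = 1.3e-04). Dlg2 peak 130 (chr7:91735147-91735564) had 0.581, 0.307, 0.671, 0.369 and 0.563 CPM in RF3 at TP2, against 1.66, 0.787, 0.975, 1.45 and 0.745 CPM in RF4 (-1.21, SE 0.30, adjusted p = 0.0011). Every RF3 library was below every RF4 library at both peaks, but the dependence of peak 130 on RF at TP2 (adjusted p = 0.0047) was lost without any one of RF3 replicates 1, 2 and 4 and RF4 replicates 1 and 4 (up to 0.040). Dlg2 peak 132 (chr7:91739892-91741003) was lower in RF3 than in RF4 at TP2 (-0.78), and its dependence on RF (adjusted p = 0.0077) was lost without any one of 14 of the 25 libraries (up to 0.041). At TP1, Dlg2 peak 21 (chr7:90976814-90978121) had 1.55, 1.64, 1.55, 1.36 and 1.40 CPM in RF1, against 3.65, 3.22, 2.68, 2.97 and 2.63 CPM in RF4 (-0.86, SE 0.13, adjusted p = 1.9e-07). Dlg2 peak 25 (chr7:91072393-91073137) had 0.822, 0.777, 1.11, 0.917 and 0.805 CPM in RF1, against 1.95, 1.78, 1.38, 1.64 and 2.14 CPM in RF5 (-0.97, SE 0.18, adjusted p = 7.1e-06). The groups did not overlap at either peak. At TP1, peak 25 was called in 3 RF5 libraries and in 0 libraries of every other RF. It reached the 3 libraries of a group needed for a merged peak only in RF5 at TP1, the group where it was high. Its p-value for this pair does not allow for that. Dlg2 peak 67 (chr7:91362081-91362503, 0.914 CPM) was lower in RF1 than in RF5 at TP1 (-0.84, SE 0.20), and its dependence on RF (adjusted p = 0.0027) was lost without RF1 replicate 2 (0.022). Peak 67 also reached 3 calling libraries only in RF5 at TP1. Peak 19 reached 3 or more only in RF4 at TP2 and in RF5 at TP1, and was called in 0 RF3 libraries at TP2. The p-values of these pairs do not allow for this either.

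In Dlg4, 8 of the 9 peaks depended on RF at both TPs, and the exception at both was peak 6, the lowest at 1.94 CPM (adjusted p = 0.077 at TP2 and 0.099 at TP1). RF3 had the lowest estimate in 6 of the 8 at TP2 and RF5 in the other 2, whereas at TP1 RF3 had the highest in 6 and RF5 in 2. At TP1, RF1 and RF4 were lowest in 4 peaks each. The same counts over all RF-dependent peaks, or over those of chromosome 11, were not made. Over all 9 peaks, RF1 over RF3 had a median log2 fold change of 0.48 at TP2 (8 of 9 above 0), against -0.31 at TP1 (0 of 9 above 0). With the mean of each 1 Mb bin taken out of the counts, these medians were 0.07 at TP2 and 0.17 at TP1, so that the sign at TP1 turned. That of RF3 over RF4 was -0.50 at TP2 (0 of 9), against 0.34 at TP1 (9 of 9). On chromosome 11 as a whole, the medians of RF1 over RF3 were 0.22 at TP2 and -0.26 at TP1, with the same signs as in Dlg4. Those of RF3 over RF4 were -0.24 and 0.06, also with the signs of Dlg4.

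The highest peak of the family was Dlg4 peak 3 (chr11:70019989-70022219, 61.5 CPM). At TP2 it had 70.3, 67.6, 66.7, 63.5 and 53.6 CPM in RF1, against 42.9, 44.9, 48.5, 49.5 and 45.8 CPM in RF3, and all RF1 libraries were above all RF3 libraries (0.57, SE 0.06, adjusted p = 5.5e-11). At TP1 it had 70.3, 70.3, 69.3, 72.9 and 71.7 CPM in RF3, against 55.3, 58.6, 58.0, 51.1 and 57.2 CPM in RF4, also without overlap (0.47, SE 0.07, adjusted p = 3.4e-06). Dlg4 peak 1 (chr11:70014104-70015937, 17.8 CPM) was higher in RF1 than in RF3 at TP2 and lower at TP1. At TP2 it had 20.5, 20.9, 22.1, 19.3 and 14.6 CPM in RF1, against 11.9, 12.8, 13.7, 13.4 and 13.4 CPM in RF3 (0.65, SE 0.09, adjusted p = 8.6e-09). At TP1 it had 13.7, 17.7, 19.7, 16.1 and 13.2 CPM in RF1, against 20.3, 21.1, 21.1, 21.8 and 20.9 CPM in RF3 (-0.38, SE 0.07, adjusted p = 2.1e-05). The groups were apart at each TP, with opposite order, and the difference changed between TPs by 1.03 (SE 0.11, adjusted p = 2.9e-12). This peak is shared with Acadvl and Mir324. Dlg4 peak 7, which is not at another gene's window, moved alike. Its RF1 over RF3 difference was 0.48 at TP2 and -0.52 at TP1, and its interaction had an adjusted p of 3.4e-11. Peak 7 was picked after its values were seen. Chromosome 11 as a whole had the same signs, so peak 7 cannot tie the change at peak 1 to Dlg4.

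Dlg4 peak 2 (chr11:70018163-70018471, 5.22 CPM), which overlaps the promoter printed above, had 5.91, 4.57, 5.67, 5.21 and 4.31 CPM in RF1 at TP2, against 3.58, 3.78, 3.32, 3.37 and 3.83 CPM in RF3 (0.63, SE 0.14, adjusted p = 2.3e-04). No RF1 library was as low as any RF3 library. Its dependence on RF at TP2 (adjusted p = 6.4e-04) was lost without RF3 replicate 3 (0.013). At TP1 the widest difference was RF4 over RF5, at -0.67 (SE 0.12, adjusted p = 2.2e-05). Near the 3′ end, Dlg4 peak 8 (chr11:70042539-70043332, 3.73 CPM) had 4.33, 3.76, 6.31, 4.01 and 2.73 CPM in RF2 at TP2, against 2.13, 2.75, 2.61, 2.95 and 2.26 CPM in RF5 (0.68, SE 0.15, adjusted p = 0.0035). RF2 replicate 5 lay within the range of RF5. At TP1 the dependence of peak 8 on RF (adjusted p = 0.0027) was lost without RF3 replicate 4 (0.016) or 5 (0.012). With the mean of each 1 Mb bin taken out, 2 Dlg4 peaks depended on RF at TP2 and 7 at TP1, with backgrounds of 9.08% and 45.5%.

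**Figure D4:**
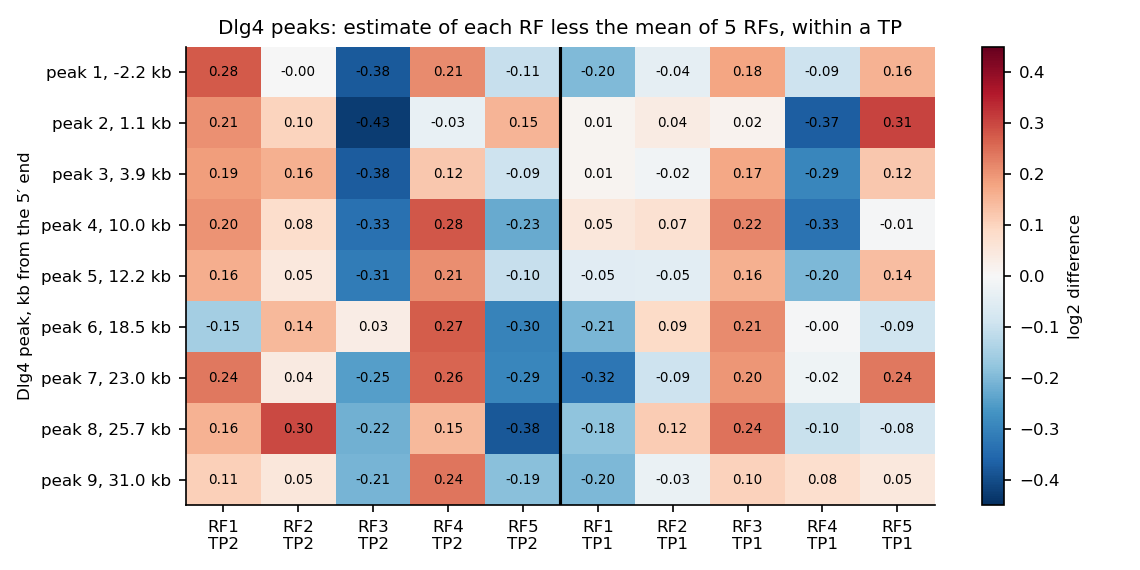
Deviation of each RF from the mean of the 5 RFs (log2, colour and number) at the 9 Dlg4 peaks in order along the gene, with their distance from the 5′ end in kb, at TP2 (left) and TP1 (right). RF3 is lowest in 6 of the 8 RF-dependent peaks at TP2 and highest in 6 of 8 at TP1.

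In Dlg1, 2 peaks depended on RF at both TPs. Dlg1 peak 1, over the first annotated start (chr16:31662984-31664919, 13.5 CPM), had 9.24, 11.5, 11.7, 9.70 and 11.7 CPM in RF3 at TP2, against 14.7, 12.3, 14.7, 13.7 and 14.5 CPM in RF5 (-0.43, SE 0.08, adjusted p = 3.2e-04). At TP1 it had 15.5, 15.9, 16.1, 15.6 and 16.8 CPM in RF3, against 11.9, 12.2, 14.6, 12 and 12.1 CPM in RF4 (0.47, SE 0.07, adjusted p = 3.9e-07). RF3 was therefore the lowest RF at TP2 and the highest at TP1, without overlap in either pair, although the Dlg1 sum at TP1 was lowest in RF3. Dlg1 peak 25 (chr16:31874736-31877822, 23.3 CPM), which lies past the end of the gene and at Meltf, had 21.8, 20.4, 23.5, 23.8 and 21.3 CPM in RF3 at TP2, against 25.3, 26.9, 26.3, 30.9 and 26.8 CPM in RF4 (-0.36, adjusted p = 3.4e-05). The Dlg1 DAR at TP1 was peak 9 (chr16:31753015-31756153, 11.1 CPM), over an annotated start within the gene. It had 12.3, 11.7, 11.6, 12.5 and 11.6 CPM in RF1, against 9.67, 7.70, 9.86, 8.73 and 9.37 CPM in RF4 (0.53, SE 0.07, adjusted p = 1.1e-08), while the Dlg1 sum was lower in RF1 than in RF4. At TP2 peak 9 did not depend on RF (adjusted p = 0.37). Over all 25 Dlg1 peaks the medians of the 10 pairs lay between -0.09 and 0.06 at TP2, and at TP1 RF1 over RF4 had a median of -0.20.

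In Dlg3, peak 1 at the annotated 5′ end (chrX:100766864-100769980, 21.4 CPM) was the peak that depended on RF at both TPs. At TP2 it had 18.7, 22.1, 21.5, 22 and 19.5 CPM in RF3, against 26.7, 26, 24.1, 23.2 and 25.5 CPM in RF5 (-0.33, SE 0.07, adjusted p = 0.0014). At TP1 it had 26.1, 25.4, 23, 21.8 and 26.1 CPM in RF1, against 18.7, 19.2, 19.3, 20.5 and 19.6 CPM in RF4 (0.47, SE 0.06, adjusted p = 1.2e-08). The groups did not overlap in either pair. Dlg3 peak 3, over the promoter printed above, did not pass the test of dependence on RF at TP2 (adjusted p = 0.11) and did at TP1 (4.2e-06). The Dlg3 DAR at TP1, peak 5 (chrX:100788903-100790098, 2.16 CPM), had 3.07, 1.85, 2.21, 2.65 and 2.35 CPM in RF1, against 1.93, 1.39, 1.56, 1.91 and 1.47 CPM in RF5, with RF1 replicate 2 within the range of RF5 (0.57, SE 0.14, adjusted p = 6.1e-04). Its dependence on RF (adjusted p = 0.0053) was lost without any one of RF1 replicates 1 and 4 and RF5 replicates 2 and 5 (up to 0.049). All 13 Dlg3 peaks were higher in RF1 than in RF5 at TP1 in their estimates, with a median of 0.21. The median of RF1 over RF3 at TP1 was 0.20 over the Dlg3 peaks, against 0.46 on the X chromosome as a whole, where it was -0.21 at TP2.

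The interaction of RF and TP was called for the gene sums of all 4 genes (adjusted p = 1.5e-07 for Dlg4, 2.0e-06 for Dlg3, 1.7e-04 for Dlg2 and 0.0032 for Dlg1, in a background of 79.6%). The smallest values among single peaks were those of Dlg2 peak 1 (adjusted p = 4.5e-13), Dlg4 peak 1 (5.9e-13), Dlg4 peak 5 (9.7e-12), Dlg4 peak 7 (3.4e-11), Dlg4 peak 3 (3.8e-11), Dlg4 peak 4 (2.8e-10), Dlg2 peak 45 (4.9e-10) and Dlg2 peak 51 (5.2e-09). The 5′ peak of Dlg1 (1.7e-08) and that of Dlg3 (2.0e-04) changed as well, and the call at Dlg3 was lost when the libraries numbered 1 were left out (0.029). Over the 10 groups of RF and TP, the mean log2 CPM of the sums of Dlg1 and Dlg2 had a Pearson's r of 0.68, those of Dlg3 and Dlg4 of -0.69, those of Dlg1 and Dlg4 of -0.45, those of Dlg2 and Dlg4 of 0.31, those of Dlg2 and Dlg3 of -0.39 and those of Dlg1 and Dlg3 of 0.16. These 10 points share sequencing batches within a TP and are given as a description.

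**Figure D5:**
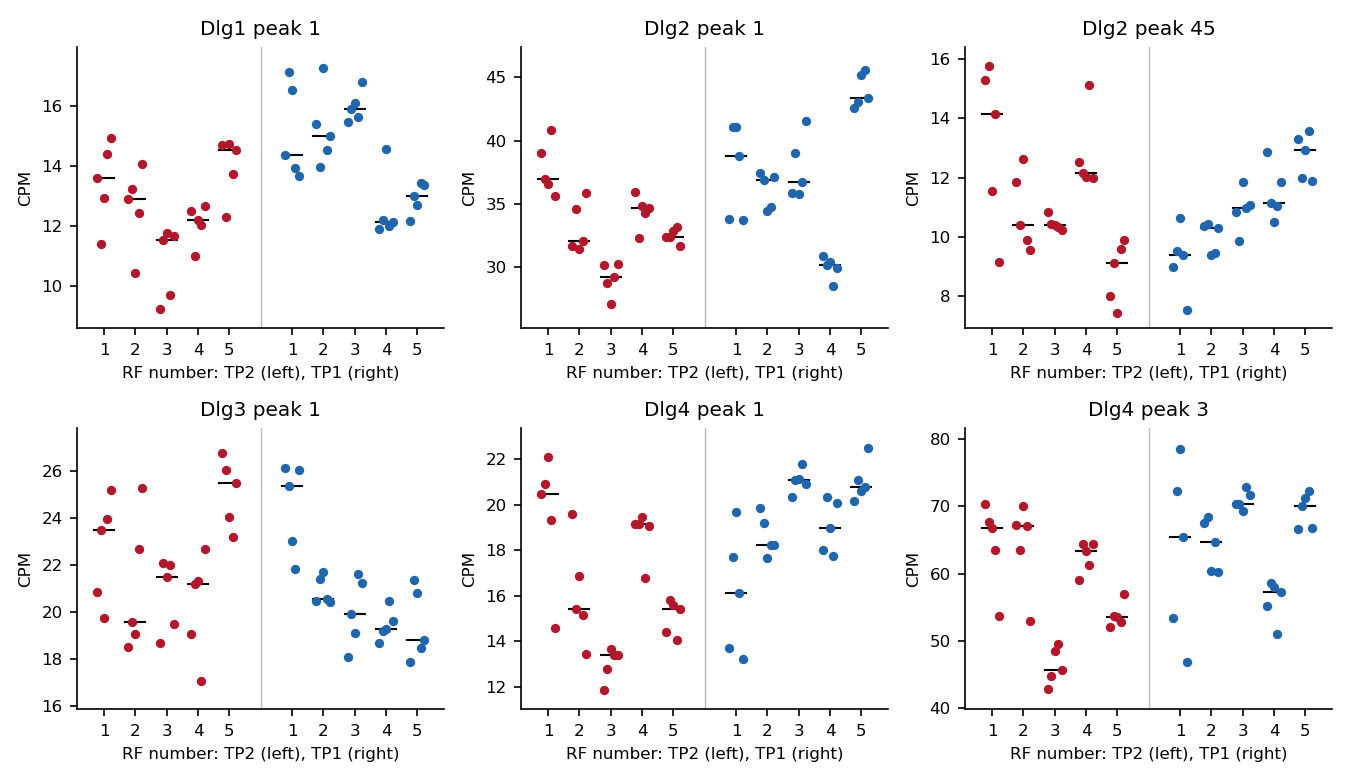
CPM per library (points) with group medians (bars) by RF at TP2 (red) and TP1 (blue), for Dlg1 peak 1, Dlg2 peaks 1 and 45, Dlg3 peak 1 and Dlg4 peaks 1 and 3. Dlg4 peak 1 has 14.6 to 22.1 CPM in RF1 and 11.9 to 13.7 CPM in RF3 at TP2, and 13.2 to 19.7 CPM in RF1 and 20.3 to 21.8 CPM in RF3 at TP1.

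The genes whose sums were most like each member over the 10 group means were ranked by Pearson's r among 26872 to 26876 genes. For Dlg4 they were Pnpla7 (0.996), Coasy (0.994), Prrg2 (0.993), Tmem39b (0.993) and Grin1 (0.992), which encodes the obligate subunit of NMDA receptors. For Dlg2 they were Gm15738 (0.969), Mosmo (0.969), Tanc2 (0.965), Mir6920 (0.95) and Mir3106 (0.942). For Dlg1 they were Zfp85os (0.984), Gm16523 (0.982), Gm26760 (0.973), Lsamp (0.972) and Gm32545 (0.971), and for Dlg3 Gm52122 (0.961), 9630001P10Rik (0.959), 4930429B21Rik (0.945), Gm15201 (0.941) and Eif4e3 (0.939).

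Genes of proteins that Dlg proteins anchor or bind were taken from a list of 43, all of which were tested: subunits of NMDA, AMPA and kainate receptors, the stargazin family, potassium channels, adhesion proteins, and enzymes and scaffolds bound to Dlg proteins. Their sums depended on RF in 37 of 43 at TP2 and in 41 of 43 at TP1, and the interaction was called in 41, in the backgrounds of 60.3%, 79.6% and 79.6% given above. The range between RF estimates had a median of 0.27 at TP2 and 0.33 at TP1 in the list, against 0.33 and 0.39 over all genes. Among those called at TP2, RF4 was highest in 16 and RF3 lowest in 15, and among those called at TP1, RF1 was highest in 16 and lowest in 19. How often each RF was highest or lowest over all gene sums was not counted. The widest ranges at TP2 were those of Lrfn1 (0.60), Lrfn4 (0.58) and Grin2d (0.55), each highest in RF4 and lowest in RF3 as was Dlg4, and of Erbb4 (0.54), which was highest in RF3 and lowest in RF4. Lrfn1 and Lrfn4 encode synaptic adhesion proteins, Grin2d an NMDA receptor subunit and Erbb4 a neuregulin receptor. At TP1 they were those of Gria3 (0.68, highest in RF1 and lowest in RF5), Kcnj2 (0.66, RF1 and RF4), Kcna4 (0.65, RF1 and RF3) and Gria2 (0.64, RF1 and RF3), which encode AMPA receptor subunits and potassium channels. The sum of Grin1 was higher in RF1 than in RF3 at TP2 by 0.28 (adjusted p = 6.7e-06), against -0.14 at TP1 (adjusted p = 0.028), which did not pass. Grin1 was not among the widest ranges and was picked for its likeness to Dlg4 in the same libraries, which these values restate. Grin2a, Gria1, Kcna1, Kcna2, Begain and Dlgap1 were not called at TP2.

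Of 24 other genes of membrane-associated guanylate kinases and their relatives, 22 were tested, and 18 depended on RF at TP2, 21 at TP1, and 21 in the interaction. The backgrounds over all gene sums were 60.3%, 79.6% and 79.6%. The median range between RFs was 0.30 at TP2 and 0.37 at TP1, against 0.33 and 0.39 over all genes. The widest at TP2 were those of Mpp7 (0.68, highest in RF3 and lowest in RF4), Card14 (0.67, RF1 and RF5), Cacnb1 (0.49, RF4 and RF3) and Mpp3 (0.46, RF4 and RF5), and at TP1 those of Card14 (0.72, RF5 and RF1), Mpp7 (0.63, RF1 and RF3), Mpp1 (0.63, RF1 and RF4) and Card10 (0.61, RF4 and RF1). By comparison, the range of the Dlg4 sum at TP2 was that of RF3 over RF4 given above, 0.40 in size.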

How the data were processed

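ATAC-seq libraries of sorted NeuN-positive nuclei were sequenced by the authors, who aligned the reads with Bowtie2 to GRCm38, marked duplicates with Picard 1.140 and called broad peaks in each library with MACS2 2.1.4. The authors kept a peak that 3 or more libraries of its group shared, merged the peaks of the 10 groups and counted reads in the merged peaks. All tests used the deposited raw counts. A second deposited table, named as normalized, holds identical whole numbers and was not used. Each merged peak has a number between 1 and 10 in a further deposited list, taken as the number of groups. The deposited peak lists give, per library, the authors' MACS2 score, the fold enrichment (a ratio), and the -log10 p and -log10 q. Only their positions and, in 1 alternative, the -log10 q were used. The authors tested their counts with DESeq2.

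All 50 columns were mapped to a sample by their labels. Counts of all peaks were tested by robust quasi-likelihood F-tests (edgeR 4.0.16, R 4.3.3), after filterByExpr and with TMM factors. Each TP had its own model of RF and replicate number, and the interaction was tested over both TPs. Per the methods of the study, nuclei were sorted in batches with 1 sample of each RF, but the labels do not tie the replicate number to these batches, so it is an assumed stand-in for them. Gene sums over the span of every gene and 2 kb either side were tested the same way. P-values were adjusted by Benjamini-Hochberg over all peaks or all gene sums, and called below 0.01. CPM relates the counts of a peak to the total over all merged peaks of a library. The test was checked on simulated counts. Of log2 changes of 1, it recovered 92.4% at TP2, 100% at TP1 and 87.9% in the interaction. Of changes of 0.5 it recovered 40.3%, 59.7% and 14.9%, and of changes of 0.25 it recovered 2.99%, 0% and 1.49%. The simulated libraries were independent and shared 1 fixed spread, unlike the libraries here. By the labels each library is 1 mouse, but nothing shows whether libraries within sampling noise (1.02 times the variance of sampling, over peaks of 500 to 5000 counts) hold separate material, so p-values may rest on fewer than 5 samples per group. They were summed within a group in 1 alternative, and whether their labels are right was not tested.

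Genes, starts and promoter sequences came from RefSeq tables of GRCm38.p6, and all 4 members matched by symbol. Of each gene, the peaks named were the one at the annotated 5′ end, the highest, those with the widest range between RFs at each TP (3 in Dlg2, 1 in each other gene) and those with the smallest interaction p (3 in Dlg2, 1 in each other gene). Values of other Dlg4 peaks and of the peaks over the printed promoters were added after their values were seen. From each list the 4 genes with the widest range between RFs were named, and Grin1 was added after the ranking by likeness. The members, lists and rules were chosen with earlier results of these data known. Alternatives left out each replicate or the replicate term, changed the scaling (DESeq2 size factors, a loess offset, the mean of 1 Mb bins taken out), the filter, the thresholds and the window (10 kb), or used DESeq2 1.42.0. Tables were handled in Python 3.11.15 (pandas 2.3.3, numpy 2.4.6, scipy 1.17.1), figures drawn with matplotlib 3.10.9, and R used data.table (version 1.17.8) and limma 3.58.1.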

Additional observations from a re-analysis of the deposited data

Results flagged for a closer look

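In 11 of 220 groups of 5 libraries, 1 library stood apart from the other 4 by Dixon's test, and chance alone gives about 1 in 20 groups. For gene sums, these were Dlg2 in RF2 replicate 5 at TP2 (1066 CPM), in RF4 replicate 3 at TP2 (1292 CPM), in RF3 replicate 1 at TP1 (1133 CPM) and in RF5 replicate 1 at TP1 (1267 CPM), and Dlg3 in RF5 replicate 2 at TP1 (65.9 CPM). For single peaks, they were Dlg1 peak 1 in RF4 replicate 3 at TP1 (14.6 CPM), Dlg2 peak 19 in RF5 replicate 1 at TP2 (0.833 CPM), Dlg2 peak 132 in RF1 replicate 3 at TP1 (2.93 CPM), Dlg2 peak 45 in RF4 replicate 4 at TP2 (15.1 CPM), Dlg4 peak 2 in RF4 replicate 3 at TP2 (5.89 CPM) and Dlg4 peak 1 in RF4 replicate 4 at TP2 (16.8 CPM).

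The differences between RFs changed from one TP to the other, by the interaction test of edgeR, at the gene sums of Dlg4 (adjusted p = 1.5e-07), Dlg3 (2.0e-06), Dlg2 (1.7e-04) and Dlg1 (0.0032). Among named peaks they changed at Dlg1 peaks 1 (1.7e-08), 9 (5.8e-05) and 25 (0.0021), and at Dlg3 peak 1 (2.0e-04). In Dlg2 they changed at peaks 1 (4.5e-13), 45 (4.9e-10), 51 (5.2e-09), 21 (5.1e-05), 130 (7.4e-05), 19 (1.1e-04), 67 (0.0025) and 25 (0.0036). In Dlg4 they changed at peaks 1 (5.9e-13), 3 (3.8e-11), 8 (7.7e-05) and 2 (0.0019). TP and sequencing batch cannot be told apart in these tests. The call was lost without the libraries of 1 number at Dlg1 peak 25 (number 2, 0.028) and Dlg3 peak 1 (number 1, 0.029). The same held for Dlg2 peaks 19 (number 1, 0.011) and 21 (number 1, 0.010). Of 5 such cases, the call was lost in 2 at Dlg2 peak 25 (up to 0.035) and Dlg4 peak 2 (up to 0.029), and in 4 at Dlg2 peak 67 (up to 0.049). Dlg2 peaks 25, 67 and 130 were called in 3 libraries of a group only in RF5 at TP1.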

How the results depend on the processing

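The main counts were 47 RF-dependent Dlg2 peaks at TP2 and 68 at TP1, 24 and 33 Dlg2 DARs and 65 Dlg2 interactions, beside 11 and 19 RF-dependent peaks, 7 and 5 DARs and 14 interactions in Dlg1, Dlg3 and Dlg4 together. With the 1 Mb mean taken out, Dlg2 had 4 RF-dependent peaks and 0 DARs at TP2, 12 DARs at TP1 and 21 interactions, and the other genes 5 RF-dependent peaks and 1 DAR at TP2. Over all peaks, this setting gave 9.08% RF-dependent peaks and 3.33% DARs at TP2, 19.4% DARs at TP1 and 25.3% interactions. Summing libraries within noise gave 17 RF-dependent Dlg2 peaks and 9 DARs at TP2, while the share over all peaks fell to 14.99% and 13.5%, against 30.8% and 21% with all libraries. Leaving out RF1 replicates 3 and 5 and RF2 replicate 5, chosen after seeing the data, gave 84 and 58 for Dlg2 (49.5% and 36.1% over all peaks), and -0.12 for the Dlg1 sum (RF1 over RF3, TP2). An adjusted p below 0.05 gave 82 RF-dependent peaks and 46 DARs at TP2 and 102 interactions in Dlg2, and 30 RF-dependent peaks at TP1 and 25 interactions in the other genes. A log2 fold change of 0.25 gave 62 and 86 DARs in Dlg2 and 12 and 21 in the other genes, and one of 1 gave 1 and 0 in Dlg2 and 0 and 0 in the other genes. The shares over all peaks at these changed thresholds were not computed, so these counts have no background. Windows of 10 kb gave 8 DARs of the other genes at TP1.

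Leaving out each replicate in turn gave 34 to 64 and 59 to 101 RF-dependent peaks, 15 to 39 and 25 to 46 DARs and 28 to 71 interactions in Dlg2, and 10 to 12 and 16 to 25, 6 to 9 and 4 to 10, and 10 to 15 in the other genes (10 DARs at TP1 without RF1 replicate 3). Over all peaks, 25.96% to 39.7% and 55.1% to 63.5% were RF-dependent, 17.6% to 29.2% and 33.7% to 43.5% DARs, and 40.8% to 53.9% interactions. RF1 over RF3 ranged from 0.0936 to 0.15 for the Dlg2 sum and from -0.11 to -0.0742 for the Dlg1 sum at TP2, and from -0.29 to -0.12 for the Dlg4 sum at TP1.

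Changes of sign at named peaks were counted only where the test was called in the main fit or in the changed setting. For the interaction, DESeq2 gave no RF1 over RF3 value. Among the settings that kept all libraries, the changes counted came only with the 1 Mb mean taken out. They were in the interaction of Dlg1 peak 25 (-0.0426), Dlg2 peak 1 (-0.0444), Dlg3 peak 1 (0.25), Dlg4 peak 2 (-0.24), Dlg4 peak 3 (-0.16) and Dlg4 peak 8 (-0.0926), and at TP1 in RF3 over RF1 of Dlg4 peak 8 (-0.0522) and Dlg4 peak 1 (-0.10). This setting also turned the median RF1 over RF3 at TP1 of Dlg4 (0.17, against -0.31), Dlg2 (0.01, against -0.08) and Dlg3 (-0.07, against 0.20), and a loess offset turned that of Dlg1 at TP1 (-0.01, against 0.03). At TP2 the Dlg3 median (-0.01) was 0.04 in both settings. The cause was not tested. Whether the replicate number marks a sorting batch is not given in the labels, and the median correlation of deviations of samples with the same number was 0.001 at TP2 and 0.045 at TP1. With no replicate block, Dlg2 had 48 and 64 RF-dependent peaks and 61 interactions, and the other genes 11, 18 and 14. The shares over all peaks were then 30.8%, 56.6% and 53.7%. Peaks under 1 CPM, such as Dlg2 peaks 130 and 67, rest on few counts per library. Of 36 counts of libraries with a called peak, over an overlap of 50% or a -log10 q of 5, 29 moved (Dlg2 peak 1 from 50 lists to 15 with the overlap).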
